A study of Homo sapiens with 2 samples.

Results

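This section describes RBMS3 binding on the transcripts of the DDX and DHX RNA helicases, the 54 protein-coding genes of GENCODE release 44 named DDX or DHX followed by a number (38 DDX and 16 DHX genes), out of 20046 protein-coding genes. The data came from CLIP-seq, in which ultraviolet light crosslinks a protein to the RNA it touches and the bound RNA is sequenced. MDA-MB-231 cells, an established line of triple-negative breast cancer, expressed FLAG-tagged RBMS3, an RNA binding protein, and were untreated otherwise as far as the labels say. There was 1 group with 2 biological replicates and no control group, and the source and cell line labels of replicate 2 read MDA-MB-232 where its title reads MDA-MB-231. The tagged protein was expressed in the cells because no suitable antibody against the endogenous protein was at hand, so its level need not be that of the endogenous protein.

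The deposited list pools both replicates and holds 27706 sites, each a position where sequenced tags (unique RNA fragments) carry a deletion. The authors take such deletions as marks of direct crosslinking. Other origins of a deletion were not tested here, also for the sites where every tag carries it. Of the 27706 sites, 25045 lay in protein-coding genes on the strand of the gene and 123 lay in DDX and DHX genes. Each site has 2 counts, the tags that cover it and the tags with the deletion. Because the replicates were pooled, no value has an error between replicates. The intervals given are 95% Wilson intervals and cover counting error only. Neighbouring sites can share tags, so their intervals are not independent. All 4 mesenchymal genes looked up (VIM, CD44, CAV1 and AXL) had sites, where 37.6% of all protein-coding genes did. Of 4 luminal genes ESR1, PGR and FOXA1 had none while GATA3 had 1, with 47 deletions in 744 tags. A site needs RNA of the gene and its absence shows nothing, so these few genes do not establish the cell line.

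RNA helicases use ATP to unwind RNA duplexes or strip proteins from RNA, and they act at nearly every step in the life of an mRNA. Most DDX proteins carry the DEAD-box motif and tend to open short duplexes locally. Most DHX proteins belong to the DEAH-box class, several of which drive the rearrangements of the spliceosome. Many RNA helicases are abundant housekeeping proteins, some are interferon-induced, and a few are made mainly in the germ line.

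The sequences that carry most of the deletions are shown first. Each run reads 5′ to 3′ on the transcript strand in hg38, the deleted base is letter 15 and is in capitals, and capitals also mark the poly(A) signal AATAAA or ATTAAA, the element that directs cleavage and polyadenylation of an mRNA. Where the deleted base is one of a run of identical bases its place in the run is ambiguous, and such deletions are listed at the lowest coordinate. In the first set the deletion lies just downstream of the signal, in DHX15, DDX5, DHX29 and DDX56 in a run of T.
DHX15, chr4:24527467-24527496, minus strand: cAATAAAgtctattTatactaattttggcc
DDX5, chr17:64499615-64499644, minus strand: cAATAAAaaatattTgaagactgaattaag
DHX29, chr5:55256241-55256270, minus strand: tacAATAAAttcttTggtattatgcatgtt
DDX56, chr7:44565799-44565828, minus strand: cagAATAAAaatttTagctgccccagtttg
DDX21, chr10:68985046-68985075, plus strand: atAATAAAgatagtAatacttgattttagt

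In the second set the deleted base is part of the signal itself.
DDX39A, chr19:14408823-14408852, minus strand: gagattgtatgagAATAAActtgttattat
DDX47, chr12:12829940-12829969, plus strand: aactaatgtgaaacAATAAAtttaaatatt
DDX46, chr5:134829006-134829035, plus strand: tttctattgaagacAATAAAgtacacaagt

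In the third set the deletion lies upstream of the signal, which is in the printed stretch for DDX3X, DHX30 and DHX40 and begins 15 nt downstream of the deletion in DHX9, beyond what is printed in full.
DDX3X, chrX:41350163-41350192, plus strand: tgtgcatattctgaTtttATTAAAATAAAa
DHX30, chr3:47850145-47850174, plus strand: acagagtgcaaatgTttatttaaAATAAAg
DHX40, chr17:59608293-59608322, plus strand: gtagtcactcagtgTttgttaAATAAAgct
DHX9, chr1:182887702-182887731, plus strand: tttcctggctttcgTttaatacaatagaaa

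The last set shows leading 3′UTR sites without AATAAA nearby, from DDX6, an internal cluster of DDX21, DDX42, DDX39B and DHX33. Those of DDX6, DDX21 and DHX33 are followed within 50 nt by a run of 8 or more A in the genome.
DDX6, chr11:118750184-118750213, minus strand: tctggaaaggggggGaaaaaagcaaaaaac
DDX21, chr10:68983652-68983681, plus strand: gacttaagggagtaGggggcgcagattagc
DDX42, chr17:63819290-63819319, plus strand: ctctctagtaaatgTtttactaccgggacc
DDX39B, chr6:31530247-31530276, minus strand: tcagaattttttttTaacaaaactaaaaat
DHX33, chr17:5442272-5442301, minus strand: tatttttaatcattCatagtgctggtaaaa

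In all, 33 of the 54 DDX and DHX genes (61.1%) had at least 1 site, compared with 37.6% of all protein-coding genes. A site in a 3′UTR was present in 29 of them (53.7%, against 31.8% of all genes), and a 3′UTR site within 100 nt of an annotated transcript end in 26 (48.1%, against 25.7%). Distances to an end are given throughout to the next annotated end downstream of the site, and an end upstream of it may be nearer. These are descriptions without a test. A site can be listed only where RNA was covered, and RNA levels were not analysed here, so how abundant a transcript is and how readily RBMS3 binds it cannot be told apart. By family, 22 of 38 DDX genes and 11 of 16 DHX genes had a site, with medians of 81.5 and 161 deletions at the leading site of a bound gene. More than 1 cluster (a group of sites within 50 nt of each other) was present in 19 of the 54 genes (35.2%, against 17.7% of all genes). The 63 clusters fell as 1 in 14 genes, 2 in 10, 3 in 7 and 4 in DDX21 and DHX40.

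The 21 genes without a site were DDX1, DDX11, DDX19B, DDX25, DDX27, DDX28, DDX31, DDX3Y, DDX4, DDX41, DDX43, DDX49, DDX51, DDX53, DDX59, DDX60, DHX16, DHX34, DHX37, DHX57 and DHX58. By role, to be read against the 37.6% of all protein-coding genes and with few genes in most groups, a site was present in 11 of 13 pre-mRNA splicing helicases, 11 of 16 ribosome biogenesis helicases, 4 of 5 in translation and mRNA decay, 3 of 5 in mRNA export, 1 of 2 in the mitochondrial ribosome and 1 of 3 in innate immune sensing. None of the 3 genes grouped as germ-line helicases, DDX4, DDX43 and DDX53, had one. Each gene was counted in 1 role only, DDX25 under mRNA export. Among 7 genes of other or less settled roles, DHX9 and DHX32 had sites.

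**Figure D1:**
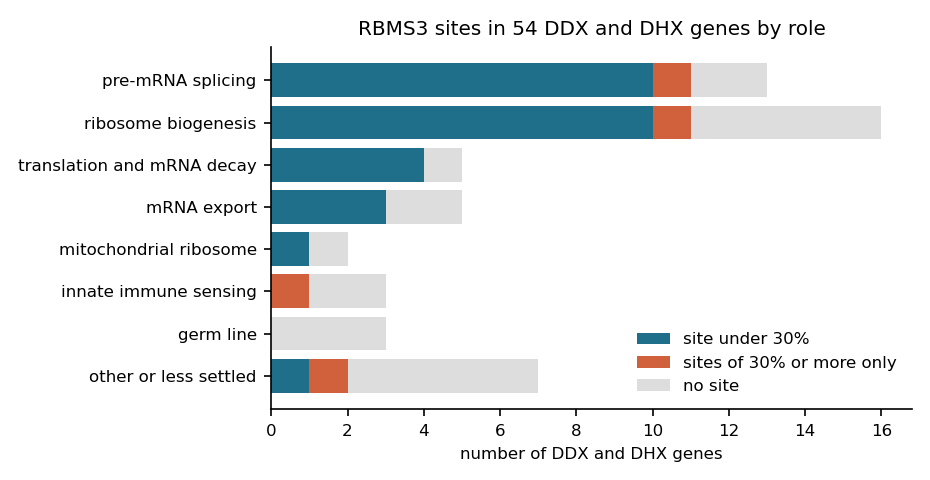
Number of DDX and DHX genes (horizontal axis) in each role (vertical axis), split into genes with a site where the deletion is in under 30% of tags, genes with sites of 30% or more only, and genes without a site. The splicing and ribosome biogenesis helicases hold 20 of the 29 genes with a site under 30%, and the 3 genes grouped as germ line hold none.

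The 123 sites were of 2 kinds. At 97 sites (78.9%, interval 70.8 to 85.1%) the deletion was in under 30% of tags. These sites were deep, with a median of 7332 tags (range 188 to 50827), 71 deletions (32 to 790) and a deletion percentage of 1.55% (0.126 to 17.0%). The other 26 sites, at 30% or more, were shallow, with a median of 15 tags (7 to 104) and 13 deletions (7 to 40), and at 17 of them every tag carried the deletion. Over all protein-coding genes 75.6% of sites were under 30%. The kinds also differed in place. Of the 97 deep sites, 94 lay in 3′UTRs, 2 in coding sequence, 1 in a 5′UTR and 0 in introns, whereas the 26 shallow sites comprised 12 in introns, 10 in 3′UTRs and 4 in coding sequence. No site under 30% in any protein-coding gene had fewer than 32 deletions or 110 tags, so positions with fewer tags were listed only at 30% or more. The fewer the tags, the higher the percentage a site needed to be listed, which limits comparisons between sites of unlike coverage. Over all genes, sites at 30% or more had up to 23840 tags, so there they were not all shallow.

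**Figure D2:**
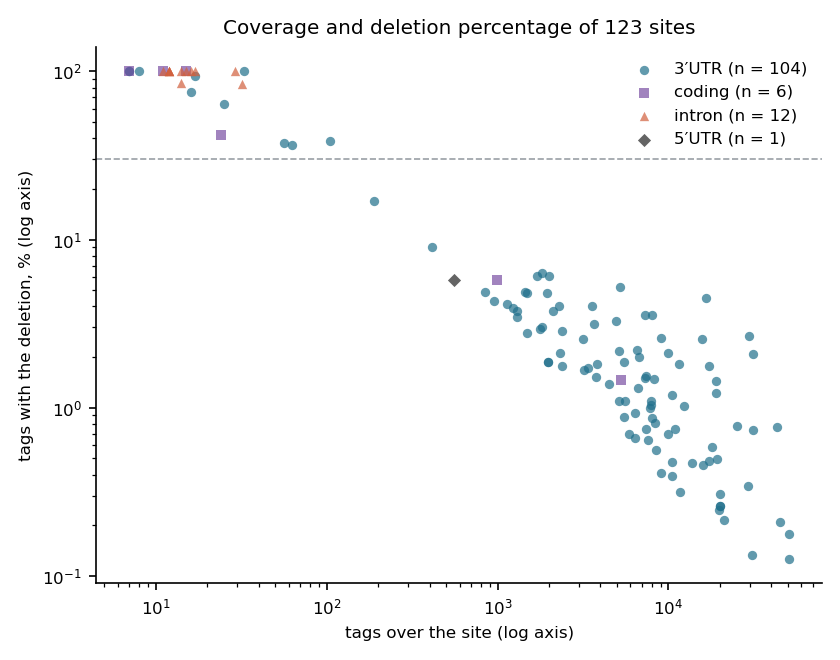
Tags over the site (horizontal, log axis) and percentage of tags with the deletion (vertical, log axis) for the 123 sites, with the part of the gene as marker; the dashed line is at 30%. All 12 intronic sites are above the line with few tags, and the deep sites below it are nearly all in 3′UTRs.

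A deep site was present in 29 of the 54 genes (53.7%, against 29.1% of all protein-coding genes). The remaining 4 bound genes, DDX10, DDX60L, DHX8 and DHX32, rested on intronic sites alone, with 11 of 11 tags in DDX10, at most 15 of 15 in DDX60L, 12 of 14 in DHX8 and 12 of 12 in DHX32. The DHX32 site and the DDX60L sites at 168529619 and 168485966 lay outside the canonical transcript (the Ensembl reference transcript), in introns of other annotated transcripts. DDX60L is the paralog of the interferon-induced DDX60, and its 3 sites lay 9899 to 40529 nt before the next annotated end. No 3′UTR site was listed for these 4 transcripts.

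**Figure D3:**
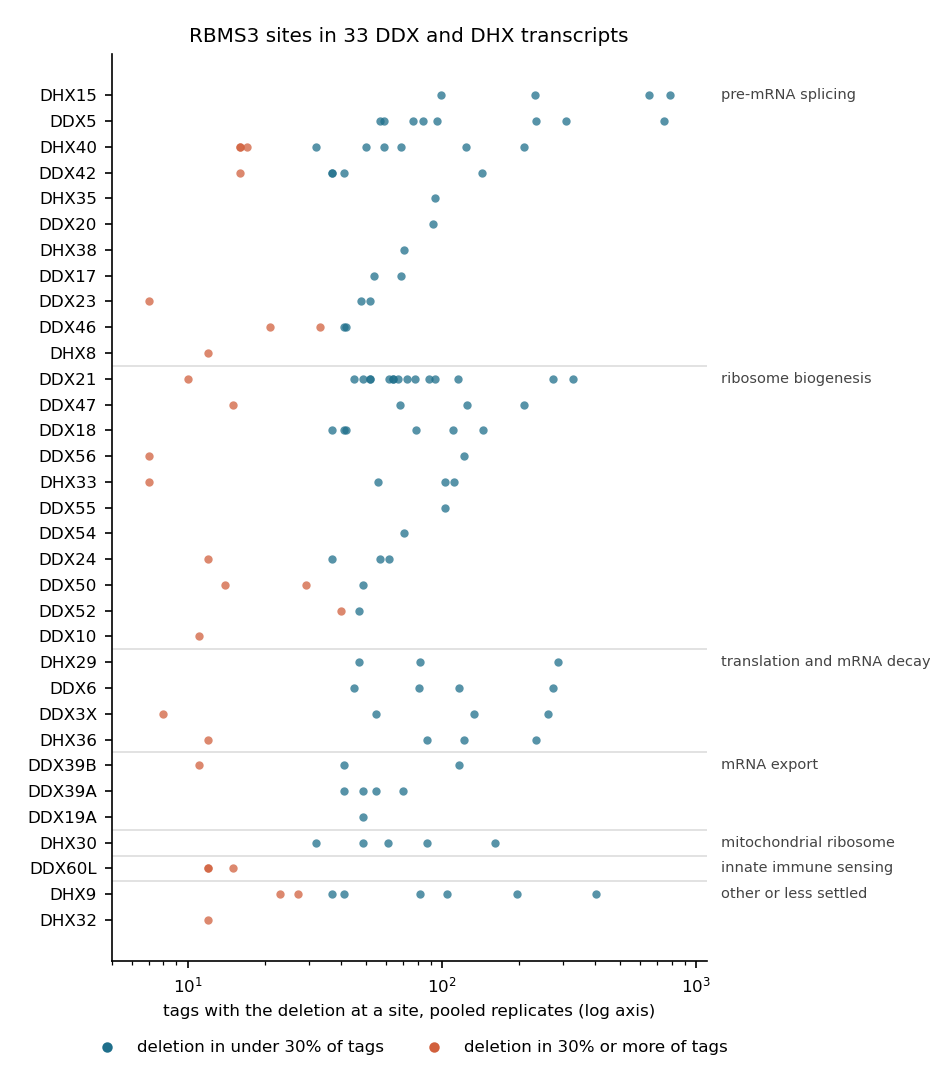
Deletions at every site (horizontal, log axis) of the 33 bound DDX and DHX genes (vertical), grouped by role; colour separates sites with deletions in under 30% of tags from the rest, and 1 point is 1 site. DHX15 and DDX5 reach the highest counts, 790 and 745 deletions, and the 4 genes with only the shallow kind stay at or below 15.

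Among the splicing helicases, DHX15 and DDX5 had more deletions at 1 site than any other DDX or DHX transcript. DHX15, which drives the disassembly of the spliceosome, had 4 sites, all in 1 cluster at the end of its 3′UTR on chromosome 4. At position 24527482, 790 of 29568 tags carried the deletion (2.67%, interval 2.49 to 2.86%), and at 24527494, on the first A run of the signal, 653 of 31462 did (2.08%, interval 1.92 to 2.24%). Positions 24527496 and 24527497 had 232 of 31350 (0.740%) and 99 of 29098 (0.340%). Coverage was nearly level over the 4 sites, so the order of their counts follows the percentages, and the intervals of the upper pair do not overlap. The same tags can cover both sites of the pair, so this is no test between them.

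DDX5, a coregulator of splicing, transcription and microRNA processing, had 8 sites in 1 cluster on chromosome 17 that spanned 2 copies of AATAAA. The leading site at 64499630 had 745 of 16551 tags (4.50%, interval 4.20 to 4.83%), downstream of the second copy. It was followed by 307 of 17327 at 64499635 (1.77%) and 234 of 19091 at 64499641 (1.23%), the latter inside that copy. Positions 64499642 and 64499634 had 95 of 19256 (0.493%) and 84 of 17325 (0.485%). The 3 sites around the first copy, at 64499657, 64499670 and 64499679, had 77, 59 and 57 deletions in 7778, 6363 and 3746 tags. Deletions were therefore concentrated at the downstream copy, where coverage was also higher. The leading site was 14 nt from the end of an annotated transcript but 1376 nt from the end of the canonical one (the Ensembl reference transcript), and the 51-nt window around 64499679 has a second exact match in the genome, so its tags may be shared.

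Its paralog DDX17 had 2 sites near the canonical end, with 69 of 3810 tags at 38483465 on chromosome 22 (1.81%, interval 1.43 to 2.29%) and 54 of 3207 at 38483470 (1.68%, interval 1.29 to 2.19%). The 2 intervals overlap, and both are below that of the leading DDX5 site. A match to the AUA motif, which the study ties to RBMS3, overlaps the signal. It starts at the deleted base of 38483465 and lies downstream of 38483470. The motif was searched on the transcript strand as NNATANA, with any base but C as the first N and A or T as the others.

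DHX40 had 9 sites in 4 clusters, as many clusters as any member. Its leading site at 59608307 on chromosome 17 had 209 of 9907 tags (2.11%, interval 1.84 to 2.41%), 38 nt from the transcript end, and the cluster also held 124 of 10465 at 59608310, 69 of 9935 at 59608330, 59 of 3404 at 59608283, 50 of 10530 at 59608313 and 32 of 188 at 59608243. The 3 sites upstream of that cluster were shallow, with 16 of 25 and 16 of 17 tags in the 3′UTR and 17 of 17 in an intron. Its deep sites were thus all in the cluster at the end.

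DDX42 and DDX46 are helicases of the U2 snRNP. DDX42 had 4 3′UTR sites in 1 cluster without a poly(A) signal in the window of any, led by 143 of 3568 tags at 63819304 on chromosome 17 (4.01%, interval 3.41 to 4.70%), and 1 intronic site with 16 of 16. DDX46 had a pair of deep sites around AATAAA, 19 and 33 nt from an annotated end, with 42 of 2377 tags at 134829020 on chromosome 5 (1.77%) and 41 of 949 at 134829006 (4.32%). Its other sites were shallow, with 21 of 56 tags at 134830500 and 33 of 33 at 134817542. The last is in the 3′UTR of another transcript and in coding sequence of the canonical one.

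The other splicing helicases had 1 to 3 sites each. The leading sites were 92 of 2292 tags in DDX20, a subunit of the SMN complex that assembles snRNPs, 94 of 1949 in the spliceosomal DHX35, 71 of 1480 in DHX38, which acts at the second splicing step, and 52 of 1779 in DDX23, a helicase of the U5 snRNP. Their percentages ran from 2.92% in DDX23 to 4.82% in DHX35. DDX23 also had a shallow 3′UTR site with 7 of 7 tags. DHX35 and DHX38 each had a single site, 10 and 11 nt from an annotated end. DDX20's site was 128 nt before the next end. DDX41 and DHX16, both spliceosomal, had no site.

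Among the ribosome biogenesis helicases DDX21, which acts in rRNA synthesis and processing in the nucleolus, had the most sites of all members, 16 in 4 clusters. At the canonical end of its 3′UTR on chromosome 10, 6 sites had 52 to 328 deletions in 7409 to 50827 tags, the deepest coverage of any member. The leading one, 68985060, had 328 of 42961 (0.763%, interval 0.685 to 0.850%). The lowest percentage of any member site, 0.126%, was at 68985048, in the signal, where coverage was deepest.

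An internal cluster of DDX21 held 8 sites within 43 nt of the end of a shorter annotated transcript, 1381 nt or more before the canonical end. It was led by 273 of 19020 tags at 68983666 (1.44%, interval 1.28 to 1.61%), a higher percentage than at the leading site of the canonical end. Another site of the canonical end, 68985001, had 115 of 7409 tags (1.55%, interval 1.29 to 1.86%), the same within counting error. None of the 8 internal sites had a poly(A) signal in its window. Of the 8, 6 were followed by a run of 8 A or more in the genome within 50 nt. Poly(A) tails were added to the bound RNA by an enzyme before its capture on oligo(dT) beads. The part of these runs of A in the capture was not tested. Genomic runs of this length followed 3 of the 44 3′UTR clusters of the members (6.82%), in DDX6, DDX21 and DHX33, and 4.32% of all 3′UTR clusters.

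The paralog DDX50 had a single deep site, with 49 of 2308 tags at 68946811 (2.12%, interval 1.61 to 2.80%), in a 51-nt window with a second exact match in the genome. It was 36 nt from the end, before AATAAA. Its other sites were intronic, with 29 of 29 and 14 of 14 tags. Its coverage was below that of every 3′UTR site of DDX21, the lowest of which had 7409 tags.

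DDX47 and DDX18 followed DDX21 within this role. DDX47 had 210 of 11525 tags at 12829954 on chromosome 12 (1.82%, interval 1.59 to 2.08%), on the first A run of AATAAA, 125 of 12293 at 12829960 and 68 of 2386 at 12829932. All 4 of its sites also lie in annotated transcripts of APOLD1 on the same strand, so their gene is uncertain. DDX18 had 5 sites around ATTAAA at its end, led by 145 of 6537 at 117832343 on chromosome 2 (2.22%, interval 1.89 to 2.60%). The window of another of them, at 117832340, occurs a second time in the genome. Its second cluster, 1332 nt before the end, was a single site with 79 of 2106 tags (3.75%, interval 3.02 to 4.65%) beside TAATATA, a match to the AUA motif without the signal. In DDX18 the internal site thus had the higher percentage and the end the larger count.

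DDX56, DDX55 and DDX54 had 1 deep site each, with 122 of 1997 tags (6.11%), 103 of 1703 (6.05%) and 71 of 1450 (4.90%). DDX56 and DDX55 were bound 7 and 43 nt from an annotated end, whereas the DDX54 site lay 1330 nt from one, 10 nt after the start of an AATAAA. In DDX52 a site with 47 of 1140 tags (4.12%) lay 6 nt from the end of a short transcript, and a second with 40 of 104 (38.5%) lay 85 nt from it. DHX33 had 3 deep sites 1370 to 1378 nt before the next end, with 111 of 5114 tags at 5442287 on chromosome 17 (2.17%), 56 of 5138 at 5442288 and 103 of 5511 at 5442295, in a stretch that is also an intron of C1QBP. A shallow DHX33 site had 7 of 7 tags. DDX24 had 62 of 4488 tags at 94050945 on chromosome 14 (1.38%), 22 nt from the end of a short transcript and 2658 nt from the canonical end, 37 of 1969 at 94050967 (1.88%) in the same cluster, and 12 of 12 at 94059070 in an intron.

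In translation and mRNA decay, 4 of 5 genes had deep 3′UTR sites. DDX3Y, which lies on chromosome Y, had none, and whether these cells carry that chromosome was not examined. DHX29, which helps the small ribosomal subunit scan structured leaders, had 285 of 8028 tags at 55256256 on chromosome 5 (3.55%, interval 3.17 to 3.98%), with 82 of 7929 at 55256270 and 47 of 8441 at 55256266. These sites were 7 to 21 nt from the end of another transcript and 201 to 215 nt from the canonical end. DDX3X, needed for translation of mRNAs with structured leaders, had 261 of 7343 at 41350177 on chromosome X (3.55%, interval 3.15 to 4.0%) and 134 of 6731 at 41350195 (1.99%). A second DDX3X cluster 11 nt from the canonical end had 55 of 1817 tags (3.03%), and 1 shallow site had 8 of 8. The leading sites of DHX29 and DDX3X had the same percentage within counting error.

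DHX36, which unwinds G-quadruplexes, had 234 of 8995 tags at 154275694 on chromosome 3 (2.60%, interval 2.29 to 2.95%), between 2 copies of AATAAA, with 122 of 8197 at 154275680 and 87 of 7888 at 154275676. They lay 8 to 26 nt from the end of a short transcript and at least 3130 nt from the canonical end. A shallow site 958 nt from the canonical end had 12 of 16 tags. The deep sites of DHX36 were thus all at the nearer annotated end.

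DDX6, a translational repressor and activator of decapping, had most of its deletions over 100 nt before the next annotated end. Its leading site at 118750199 on chromosome 11 had 272 of 5191 tags (5.24%, interval 4.67 to 5.88%) in a run of 7 G, 2433 nt before the next end, the longest such distance of any deep 3′UTR site among the members. Sites at 118751857 and 118751845, 492 and 480 nt before another annotated end that lies upstream of the leading site, had 116 of 3667 (3.16%) and 81 of 3144 (2.58%). Near the canonical end, 45 of 1302 tags at 118747801 carried a deletion (3.46%), in a window with a second exact match in the genome. In DDX6 the internal sites therefore had both more tags and more deletions than the end.

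The mRNA export helicases had sites in DDX39A, DDX39B and DDX19A. DDX39A had 4 sites over its AATAAA with 41 to 70 deletions in 5861 to 8022 tags, and its paralog DDX39B had 116 of 1826 tags at 31530262 on chromosome 6 (6.35%, interval 5.32 to 7.57%) and 41 of 841 at 31530283 (4.88%). The DDX39A percentages, at most 0.873% (interval 0.691 to 1.10%), were below those of DDX39B, while its coverage was higher. No listed site under 30% had fewer than 32 deletions. At the coverage of the DDX39B sites, percentages as low as those of DDX39A could not be listed, so their order does not compare the paralogs. All DDX39B sites also belong to the readthrough gene ATP6V1G2-DDX39B. DDX19A, which releases mRNA at the nuclear pore, had 49 of 1299 tags 46 nt from an end (3.77%), and its paralog DDX19B had none.

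Of the remaining genes, DHX9 (RNA helicase A, which resolves structured RNA in the nucleus) had 6 deep sites at the end of a short transcript on chromosome 1. The leading site at 182887716 had 404 of 15817 tags (2.55%, interval 2.32 to 2.81%), followed by 197 of 25347 at 182887724 (0.777%), 104 of 17919 at 182887719, 82 of 10945 at 182887711 and 37 of 9025 at 182887708, and coverage rose to 31019 tags at 182887740, where 41 carried a deletion (0.132%). A shallow site with 23 of 63 tags lay 144 nt from the canonical end, and an intronic one had 27 of 32. Among the 6 deep sites, coverage was highest and the percentage lowest at 182887740, nearest the end and the only site downstream of the signal. The highest percentage was at 182887716, upstream of the signal. DHX30, a helicase of mitochondrial ribosome assembly, had 161 of 4931 tags at 47850159 on chromosome 3 (3.27%, interval 2.80 to 3.80%) with 87 of 6670 at 47850180, 61 of 5539 at 47850162 and 49 of 5531 at 47850163, all within 28 nt of an end. DDX28, also of the mitochondrial ribosome, had none.

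**Figure D4:**
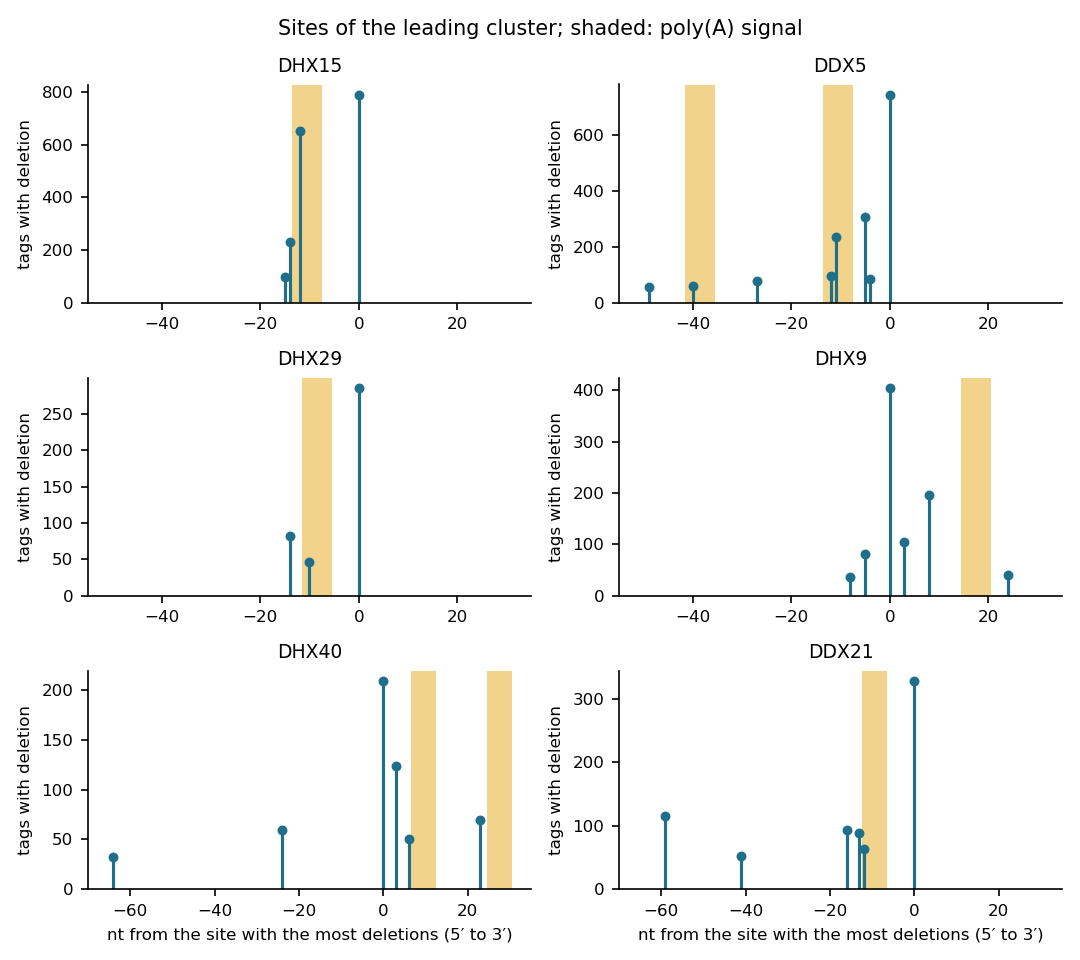
Tags with the deletion (vertical) at each site of the leading cluster of DHX15, DDX5, DHX29, DHX9, DHX40 and DDX21, by distance in nt from the site with the most deletions (horizontal, 5′ to 3′); shaded bands are copies of the poly(A) signal found around these sites. The leading site is downstream of the signal in DHX15, DDX5, DHX29 and DDX21 and upstream of it in DHX9 and DHX40.

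Coding and 5′UTR sites were few. At least 1 coding site was present in 5 of the 54 genes (9.26%, against 2.36% of all protein-coding genes), namely DDX21, DDX24, DDX39B, DDX47 and DDX56. Only 2 of the 6 sites were deep. In DDX21, 78 of 5309 tags at 68956255 (1.47%, interval 1.18 to 1.83%) carried a deletion 120 nt from the start of the gene. In DDX24, 57 of 992 at 94079357 did (5.75%, interval 4.46 to 7.37%). The other 4 had 10 of 24, 11 of 11, 15 of 15 and 7 of 7 tags. The 5′UTR site was in DHX30, with 32 of 554 tags at 47816127 (5.78%, interval 4.12 to 8.04%), in the leader of an alternative transcript and an intron of the canonical one. In all protein-coding genes, 9 of 18922 sites under 30% lay in a 5′UTR.

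Within 3′UTRs, 87 of 104 sites (83.7%, interval 75.4 to 89.5%) lay within 100 nt of the nearest annotated end downstream, at a median of 24 nt, compared with 69.0% and 34 nt over all protein-coding genes. Counted in clusters, so that neighbouring sites do not weigh several times, the share was 31 of 44 (70.5%, interval 55.8 to 81.8%) against 58.8%. With only the canonical transcript of each gene, 48.5% of the sites lay within 100 nt of an end, at a median of 112 nt. No value over all genes is given for that setting, so the comparison with all genes holds for ends of any annotated transcript only. The sites near an end of another transcript but not near the canonical one were all those of DDX5, DDX52 and DHX29, the deep ones of DHX36, DHX9, DDX46 and the DDX24 3′UTR, the internal cluster of DDX21, and 1 site each of DDX23, DDX3X and DDX42. The oligo(dT) beads that captured the enzymatically tailed RNA also bind natural tails. The part of this capture in the position of the sites was not tested.

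Of the 44 3′UTR clusters, 23 (52.3%) had AATAAA within 25 nt of the leading deletion, 4 (9.09%) had ATTAAA alone and 17 (38.6%) had neither, compared with 47.3%, 13.2% and 39.4% of 9980 clusters in all protein-coding genes. A signal was present in 25 of 34 clusters led by a deep site and in 2 of 10 led by a shallow one. Within 100 nt of an end it was present in 23 of 31 clusters (74.2%, against 75.7% over all genes), and farther away in 4 of 13 (30.8%, against 39.0%). In 24 clusters the window held 1 copy. It lay wholly upstream of the deletion in 9, included the deleted base in 4 and lay wholly downstream in 11, with starts from 15 nt upstream (DDX20) to 19 nt downstream (DDX6). The deleted base was T in 8 of the 9, 1 of the 4 and 8 of the 11.

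**Figure D5:**
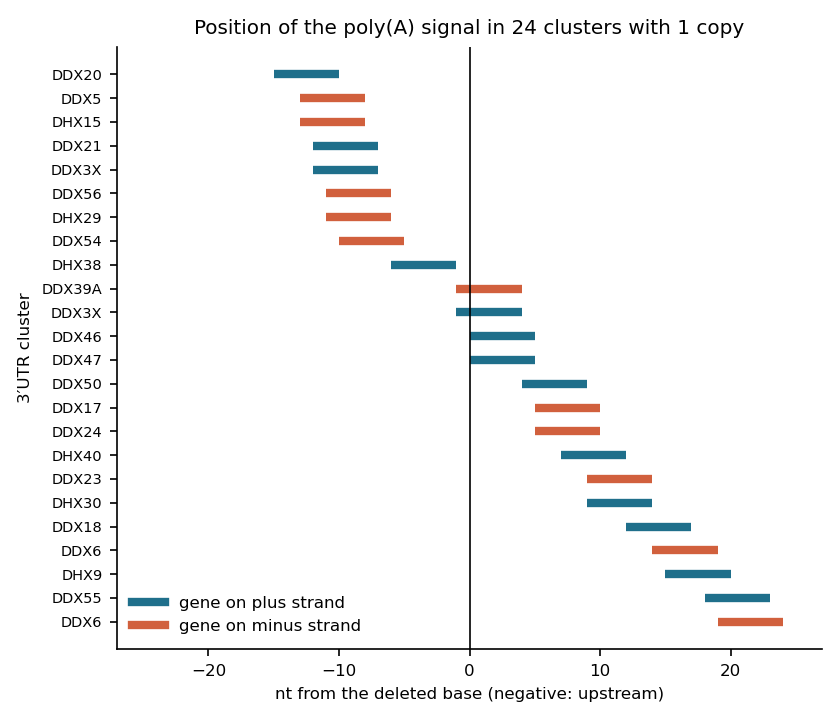
Position of the poly(A) signal (bars, 6 nt each) relative to the deleted base (vertical line, nt on the horizontal axis) in the 24 3′UTR clusters whose window holds 1 copy, ordered by position, with colour for the strand of the gene. The signal lies upstream in 9, over the deletion in 4 and downstream in 11 clusters, and both strands are found on either side.

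The AUA motif was in 18 of 44 windows (40.9%, interval 27.7 to 55.6%), compared with 47.8% over all genes. It can overlap AATAAA when A, G or T precedes the signal. Of the 23 clusters with AATAAA, 16 had such a match, and in the other 7 each copy was preceded by C. These 7 included DHX15, DDX5, DHX29 and DDX47, which are among the 10 members with the most deletions, and none of them had any AUA match. In its own motif search over the sites, the paper ranks AATAAA first by significance. Matches not containing the whole signal AATAAA were found in 3 clusters (6.82%, against 14.6% over all genes), in DDX17, DDX18 and DDX52.

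T was the deleted base in 43 of the 63 clusters (68.3%, interval 56.0 to 78.4%, against 70.0% over all genes). G followed with 10 (15.9%), A with 7 and C with 3. Among clusters led by a deep site, G was deleted in DDX17, DDX21, DDX24 and DDX6. Over all genes the share of G was 7.94%. In 55 of the 63 clusters the deleted base was next to an identical base, and in the 8 where it was not, T was deleted in 1.

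Annotated 3′UTRs differed in length between genes with and without a 3′UTR site. The median of the canonical 3′UTR was 1176 nt (76 to 4560 nt) in the 29 genes with a site and 620 nt (118 to 5965 nt) in the 25 without one, and the medians over all genes were 1680 and 782 nt. The last 50 nt of the canonical transcript held AATAAA in 21 of the 29 (72.4%) and in 18 of the 25 (72.0%), and the last 100 nt had the same median of 67% A or T in both. With ATTAAA counted too, a signal was present in 24 of the 29 (82.8%) and 24 of the 25 (96.0%). Over all genes the shares with and without a 3′UTR site were 68.7% and 61.5% for AATAAA and 83.8% and 74.9% for either signal, and the median A or T content was 69% and 63%.

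A list of 23 other RNA helicases, whose names are not DDX or DHX followed by a number, was looked up for comparison. Of these, 12 (52.2%) had a site and 11 a deep one, compared with 61.1% and 53.7% of the DDX and DHX genes and 37.6% and 29.1% of all protein-coding genes. EIF4A2, a translation initiation helicase, had 16 sites led by 916 of 31291 tags (2.93%), more deletions than any DDX or DHX site. Its relatives EIF4A3, of the exon junction complex, and EIF4A1 had 187 of 7016 and 93 of 3192 tags at their leading sites. DICER1, which cuts microRNA precursors, had 161 of 1298 (12.4%), AQR 117 of 5181, ZNFX1 106 of 1127, and UPF1, the helicase of nonsense-mediated decay, 72 of 2650. The viral RNA sensors RIGI and IFIH1 had no site, like DDX60 and DHX58.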

How the data were processed

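RBMS3 CLIP-seq libraries from 2 replicates formed 1 group. Poly(A) tails were added to the crosslinked RNA with yeast poly(A) polymerase, and the RNA was later captured on oligo(dT) beads. The authors appended molecular identifiers to the reads, ran the CLIP Tool Kit (versions are not given in the sources used here), aligned to hg38, pooled the unique tags of both replicates and called deletion sites at a false discovery rate under 10% and a fold change over 10, whose reference is not given. As deposited, each site carries 2 raw counts, its tags and its tags with the deletion. Depth is known per site only, as library totals were not analysed here.

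The deletion was taken as the centre of each 21-nt interval. Sites inside the span of a gene of GENCODE 44 on its strand were assigned to it, in the order 3′UTR, 5′UTR, coding sequence, other exon and intron over all transcripts. Distances run downstream to the next end of any transcript of the gene whose end is annotated as complete. Sites within 50 nt were joined into clusters led by the site with the most deletions, and windows had 25 nt on each side. Of the 123 member windows of 51 nt, 119 occur at 1 place in the genome. No test across samples was possible.

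Members and lists were chosen with earlier results of these data known. Every member was to be named, with sites in full for the 10 with the most deletions at 1 site, those with the most clusters (9 genes with 3 or 4), coding or 5′UTR sites, and the deep sites farthest from an end; the 16 sites of DDX21 are given partly as ranges. Alternatives covered limits on deletions and percentages, overlapping genes, strand, annotation, windows and motifs. Functions were tested on simulated sites. The tools were samtools 1.23.1 and Python 3.11.15 with pysam 0.24.0, scipy 1.17.1 and matplotlib 3.10.9.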

Additional observations from a re-analysis of the deposited data

How the results depend on the processing

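No paired analysis was possible because the replicates of the 1 group were merged before sites were called, which also means that no replicate could be left out. Of the alternatives to the main values, 50 stayed within the counting interval or within 1.5 times the count, and 26 did not; the cause was not tested unless named. Requiring deletions in at least 10% of tags left 19 genes with a site, 8 with a 3′UTR site, 27 sites and 27 clusters. With that limit 40.7% of sites were in 3′UTRs, 27.3% of 3′UTR sites were near an end (median 144 nt), and 18.2% and 9.09% of 3′UTR clusters had a signal and an AUA match, because mainly shallow sites remained. With at least 50 deletions there were 72 sites and 31 clusters, 97.2% of sites in 3′UTRs, 75.9% of 3′UTR clusters with a signal and 100% of sites under 30%. With at least 20 deletions the shares in 3′UTRs and under 30% were 95.1% and 94.2%. With sites under 30% alone there were 37 clusters and 96.9% of sites in 3′UTRs. The opposite strand held 3 sites in 2 genes. With the canonical transcript alone 48.5% of 3′UTR sites were near an end (median 112 nt). Windows of 10 nt held a signal in 25% and an AUA match in 11.4% of 3′UTR clusters, an AUA match apart from AATAAA was in 6.82%, and T was deleted in 12.5% of the 8 clusters whose deleted base differs from its neighbours. An alternative chosen after seeing the data, 3′UTRs of transcripts typed protein-coding only, gave 29 genes and 83.7%. By role, 10 counts moved by over 1.5 times under the site limits. Counts of deletions limit the shallow sites, whose intervals are wide.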

Other observations

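On the strand opposite to the DDX and DHX genes 3 sites were listed, with 27 of 27 tags across from DHX29 and 13 of 13 and 19 of 19 across from DHX32. The pair across from DHX32 lies within BCCIP, a gene on the other strand, and 0 of the 3 sites were under 30%.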
